A study of Mus musculus with 4 samples.

Results

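The genes described here are the Wnt ligands, their receptors and the proteins that carry the Wnt signal to the nucleus, measured by RNA-seq in rOvaries, which are ovaries reconstituted from germ cells and grown as grafts. Members were taken by symbol, as every gene named Wnt, Fzd or Sfrp followed by a digit, Rspo1 to Rspo4, Dkk1 to Dkk4, Lgr4 to Lgr6, and Lrp5, Lrp6, Ctnnb1, Axin1, Axin2, Apc, Lef1, Tcf7, Tcf7l1, Tcf7l2, Porcn, Wls, Znrf3 and Rnf43. This gave 58 of the 54021 symbols in the count table. Each rOvary came from an aggregate of primordial germ cells and gonadal somatic cells of mid-gestation fetuses (C57BL/6 females crossed with C57BL/6 actin-GFP males), placed under the kidney capsule of a bilaterally ovariectomized second-generation (G2) Terc-/- C57BL/6 female of about 10 weeks of age. Recipients drank water with INK128, an inhibitor of the mTOR kinase in both of its complexes (given as 0.75 μM per g in the labels, while the study's methods give a different dose), or water without it, and grafts were collected 4 weeks after transplantation. There were 2 INK128-treated libraries (replicates 1 and 2) and 2 control libraries (replicates 1 and 3). The recipients of both groups lacked Terc, the RNA component of telomerase, while the donor cells were not described as Terc-deficient, and a graft can also hold cells of the host and of the kidney beneath it. The labels did not say whether libraries of a group came from separate mice, so p-values measure only the spread between these libraries.

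Wnt proteins are lipid-modified ligands that bind a Frizzled receptor together with the co-receptor LRP5 or LRP6, and this stops a cytoplasmic complex of APC, AXIN and kinases from marking β-catenin for destruction. β-catenin then enters the nucleus and acts with TCF/LEF factors on target genes, of which Axin2, Lef1, Lgr5, Rnf43 and Znrf3 are widely used readouts. R-spondins, bound to LGR receptors, strengthen the signal by keeping the ubiquitin ligases ZNRF3 and RNF43 from removing Frizzled receptors, while SFRP and DKK proteins act outside the cell on ligands or co-receptors. In the fetal ovary, Rspo1 and Wnt4 are known for promoting ovarian over testicular differentiation of the somatic cells.

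The libraries held 19130209 to 23029089 counts, so that 3 counts, taken as the floor, were worth 0.127 to 0.161 CPM, the counts scaled to a common library size with TMM factors (the floor covers counting error only). The INK128-treated pair had a Pearson correlation of 0.98 over log2 CPM of 11758 genes and the control pair one of 0.806. Control replicate 1 stood apart in Sertoli cell markers, whose 13 genes summed to 8599 CPM against 1452 to 1710 CPM in the other libraries, with Sox9 at 148 CPM against at most 6.21 CPM. Most of that sum was Clu, at 6271 CPM against 951 to 1122 CPM in the other libraries. Gata4, Cyp26b1 and Rhox5 of the same list were lowest in control replicate 1. Control replicate 3 stood apart in oocyte markers, whose 15 genes summed to 66.8 CPM against 926 to 1319 CPM. Between the groups, the 24 kidney markers summed to 143 and 277 CPM in INK128-treated rOvaries and to 981 and 2045 CPM in controls, and 8 of the 17 with a mean CPM above 10 fell (3.19% of all 11758 genes did), of which 6 passed that filter only through the controls. The 12 surface epithelium and mesothelium markers summed to 85.5 to 96.5 CPM against 190 to 497 CPM, and the 16 immune markers to 574 to 641 CPM against 1112 to 1502 CPM. Wt1 is in both the surface epithelium and the Sertoli list. It was at 56.3 and 46.3 CPM with INK128 and at 311 and 64.7 CPM in control replicates 1 and 3. The 8 smooth muscle markers summed to 5879 to 6002 CPM against 956 to 1980 CPM, with 2 called higher (3.18% of all genes). Markers of granulosa cells (Foxl2 at 146 to 371 CPM) and of theca and stroma were present in every library. Within these lists the controls differed widely in some genes. In control replicates 1 and 3, Cyp11a1 was at 70.6 and 4032 CPM, Lhcgr at 34.0 and 1380 CPM, Hsd3b1 at 433 and 4211 CPM, and Amh at 435 and 5.10 CPM. Others were close, with Col1a1 at 2881 and 2331 CPM and Dcn at 2227 and 1897 CPM. In bulk tissue, fewer cells of a type and less RNA per cell cannot be told apart.

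**Figure D1:**
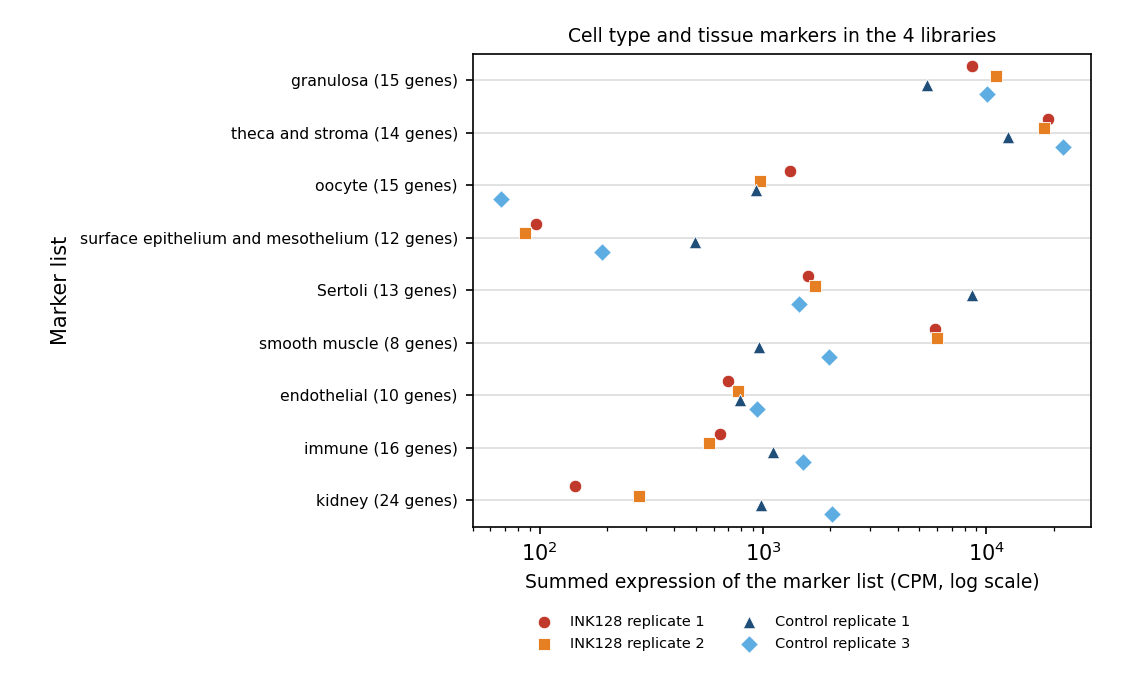
Summed CPM (log scale) of each marker list in the 4 libraries, 1 point per library. Control replicate 1 is far to the right in Sertoli markers (8599 CPM), control replicate 3 far to the left in oocyte markers (66.8 CPM), and both controls lie to the right of both INK128-treated libraries in kidney markers.

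RefSeq promoter windows on build GRCm38.p6, from 250 bases before to 50 after each start, were found for 37 of the 58 members. The TCF/LEF motif was searched on both strands as CTTTGAA, as its variant CTTTGAT, with a T in the sixth place as CTTTGTA, and with a further T as CTTTGTT. It was present in 7 of the 37 members with a window, which is 18.9%, the same share as among all 27025 symbols with a window (18.9%). Wnt5b, Wnt3, Wnt11, Fzd7, Dkk1, Lef1 and Tcf7l2 held a match, and Lgr4, Rspo1 and Axin2 did not within these windows. The 250 bases before the start are shown for Lgr4, the called member with a window, at chr2:109917397-109917646. They are also shown for Rspo1 (chr4:124986180-124986429), the ligand with the largest fitted difference among the R-spondins, for Axin2 (chr11:108920099-108920348), the feedback gene of the pathway, and for Wnt11 (chr7:98834862-98835111), a ligand whose window held the motif. All lie on the plus strand and are written 5′ to 3′, and the capitals in Wnt11 mark the motif match, which reads CTTTGAT on the other strand.
Lgr4: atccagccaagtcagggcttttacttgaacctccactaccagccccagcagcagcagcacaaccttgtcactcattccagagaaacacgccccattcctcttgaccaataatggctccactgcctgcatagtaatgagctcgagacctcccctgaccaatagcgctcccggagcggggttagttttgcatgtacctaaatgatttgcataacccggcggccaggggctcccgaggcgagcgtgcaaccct
Rspo1: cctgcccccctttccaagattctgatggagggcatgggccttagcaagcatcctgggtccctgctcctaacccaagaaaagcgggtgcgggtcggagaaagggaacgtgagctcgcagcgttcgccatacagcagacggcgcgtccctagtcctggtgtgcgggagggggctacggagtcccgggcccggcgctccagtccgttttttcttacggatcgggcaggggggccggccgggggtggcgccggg
Axin2: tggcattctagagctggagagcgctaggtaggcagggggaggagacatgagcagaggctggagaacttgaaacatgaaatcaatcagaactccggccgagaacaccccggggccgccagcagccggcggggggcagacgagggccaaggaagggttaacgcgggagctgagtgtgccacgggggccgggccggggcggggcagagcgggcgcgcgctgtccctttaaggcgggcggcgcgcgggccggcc
Wnt11: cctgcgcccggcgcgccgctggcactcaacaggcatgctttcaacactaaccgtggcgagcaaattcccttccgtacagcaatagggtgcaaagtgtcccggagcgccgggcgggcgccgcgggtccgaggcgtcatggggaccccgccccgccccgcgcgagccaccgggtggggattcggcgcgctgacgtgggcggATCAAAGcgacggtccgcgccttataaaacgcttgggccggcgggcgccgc
A match in such a window is a description of the letters and not a measured binding site.

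Members were compared between INK128-treated and control rOvaries by class. Of the 58 members, 32 had a mean CPM above 10 and entered the main test, 11 had a mean CPM of 1 to 10 and were fitted among a wider set of genes, and 15 had a mean CPM of 1 or less and are given as counts. The main test was the quasi-likelihood test of edgeR on all 11758 genes past the filter, adjusted by Benjamini-Hochberg, and a member was called at an adjusted p below 0.05 with a fold change above 1.5. In edgeR, 3 of the 32 tested members fell in INK128-treated rOvaries (Apc, Lgr4 and Fzd6), beside 3.19% of all tested genes called lower, and 0 members rose, beside 3.18% called higher. At an unadjusted p below 0.05, 8 members were lower and 1, Porcn, was higher, beside 18.7% and 17.7% of all tested genes. DESeq2 on the same genes called 7 members lower, adding Fzd5, Fzd3, Wnt5a and Rspo1, and 1 higher, Porcn, beside 15.1% and 13.6% of all genes. Of the 32, Rspo1 and Fzd5 passed the filter only through the controls, where they are higher, and Porcn only through the INK128-treated libraries, where it is higher, so their differences are partly set by the filter.

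The groups did not overlap in 20 tested members. INK128-treated rOvaries lay below both controls in 15 of the 32, beside 34.0% of all tested genes, and above both controls in 5, beside 34.5%. The median log2 fold change (INK128-treated minus control) was -0.33 over the 32 members and -0.03 over all tested genes, with 21 members negative and 11 positive. Scaling by library totals alone shifted the median of all genes to -0.15 and that of the members to -0.45. Long genes had lower fold changes throughout the table, with a Spearman rho of -0.465 between exon length and log2 fold change over 11700 genes, described here without a test because genes share the 4 libraries. Over the 32 tested members, with exon lengths from 1938 to 16116 bases, rho was -0.276. With edgeR offsets fitted to exon length, the median of the members was -0.28 and that of all genes 0.00, 18 members were negative and 14 positive, and 0 members were called. In that fit the lowest adjusted p of any gene was 0.0711. The part of length and of the marker differences in the members' values was not tested.

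**Figure D2:**
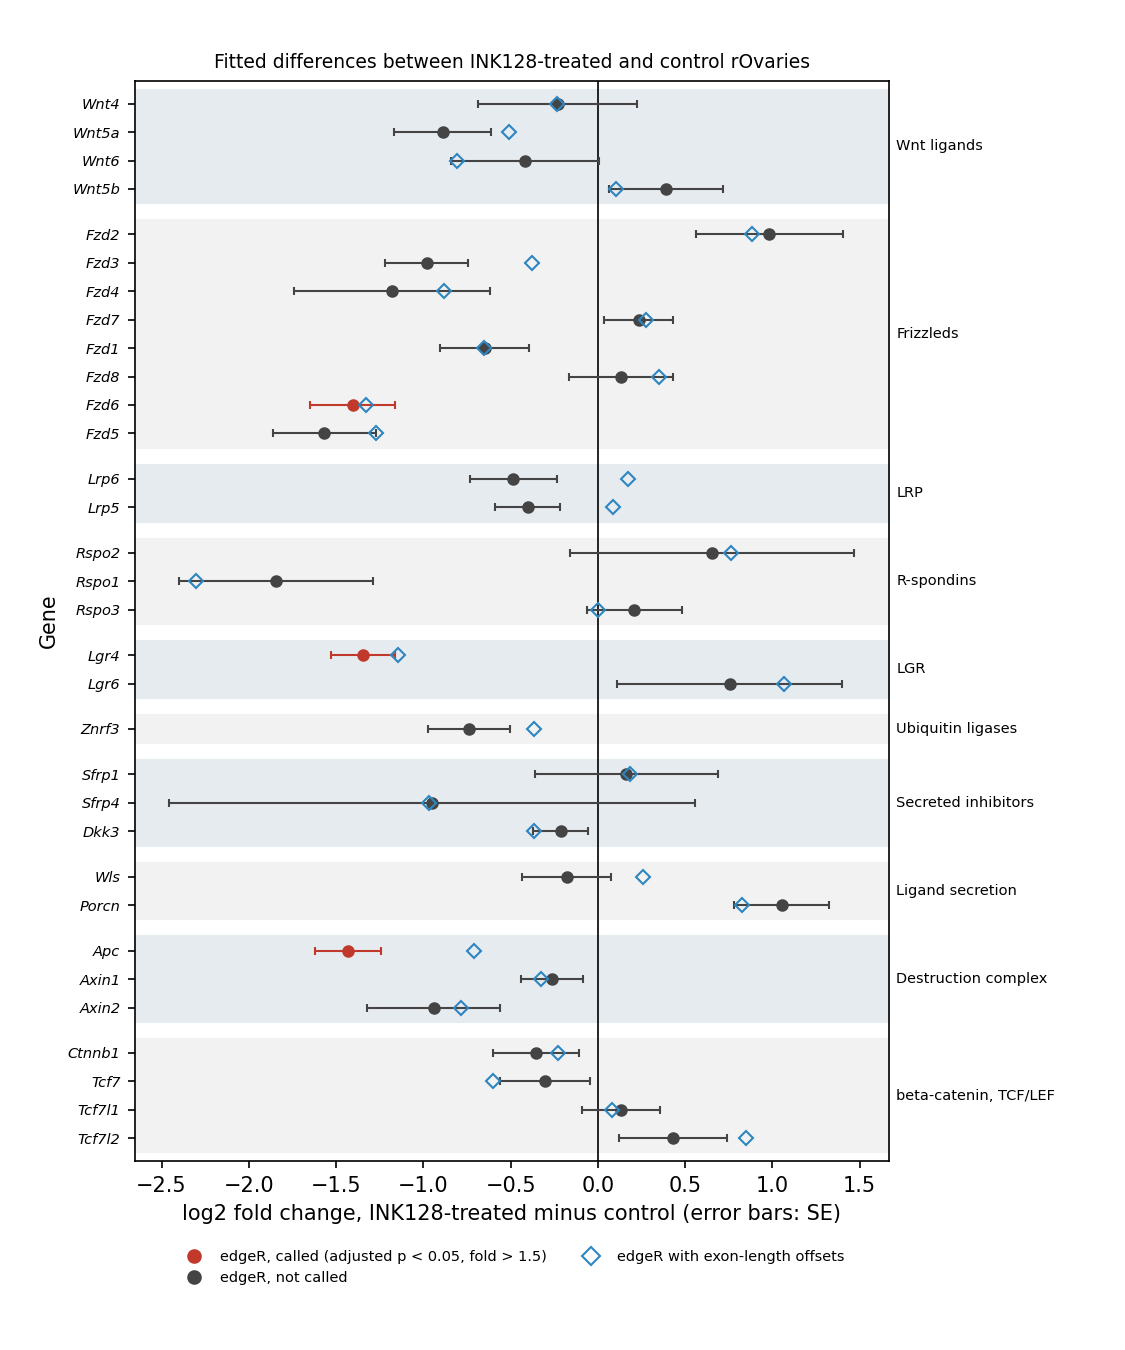
Fitted log2 fold change (INK128-treated minus control) of the 32 members with a mean CPM above 10, by class, with standard errors as bars and the same fit with exon-length offsets as open diamonds. The 3 called members (Apc, Lgr4 and Fzd6, in red) lie at -1.43 to -1.34, and the diamond of Apc, the longest member, sits at -0.71.

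Among the 19 Wnt ligands, 4 entered the main test and 0 were called by edgeR (3.19% lower and 3.18% higher over all tested genes). DESeq2 called 1 lower (15.1% of all tested genes), and 1 was lower and 0 higher at an unadjusted p below 0.05 (18.7% and 17.7%). Wnt4, the ovarian ligand (chr4:137277489-137299726), was measured at 160 and 145 CPM in INK128-treated replicates 1 and 2 and at 255 and 103 CPM in control replicates 1 and 3. The INK128-treated pair lay between the controls, which differed by more than the groups did. Its log2 fold change was -0.23 (SE 0.46, adjusted p = 0.731, edgeR with Benjamini-Hochberg adjustment), and its direction turned when control replicate 1, the library high in Sertoli markers, was left out (0.57). Wnt5a, a ligand best known for β-catenin-independent signaling, was at 34.6 and 34.8 CPM against 49.7 and 78.9 CPM. Both INK128-treated libraries lay below both controls, with a log2 fold change of -0.89 (SE 0.28). The adjusted p was 0.0984 in edgeR and 0.0384 in DESeq2 (Benjamini-Hochberg), and the value was -0.52 without control replicate 3 and -0.51 with length offsets. Wnt6, an epithelial ligand, was at 38.2 and 26.5 CPM against 58.1 and 28.2 CPM. Wnt5b, a close relative of Wnt5a, was at 22.4 and 19.3 CPM against 19.6 and 12.2 CPM. Both overlapped between the groups, with log2 fold changes of -0.42 (SE 0.42) and 0.39 (SE 0.33) and edgeR adjusted p of 0.5003 and 0.422 (Benjamini-Hochberg). With length offsets they were -0.81 and 0.10, and the value of Wnt5b was 0.089 to 0.77 in leave-one-out fits.

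Per kilobase of exon, the mean level of Wnt4 over the 4 libraries was 39.4 RPKM (24.4 to 60.8), that of Wnt6 17.2 RPKM (12.1 to 26.5), that of Wnt5b 6.92 RPKM (4.59 to 8.43) and that of Wnt5a 6.33 RPKM (4.42 to 10.1). The ranges of Wnt4 and Wnt6 overlapped, but within each library Wnt4 was above Wnt6. Those of Wnt5b and Wnt5a also overlapped, and their order differed between libraries, while Wnt6 lay above Wnt5b and Wnt5a in range. Every other ligand had a mean of at most 2.15 RPKM, the level of Wnt9a.

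**Figure D3:**
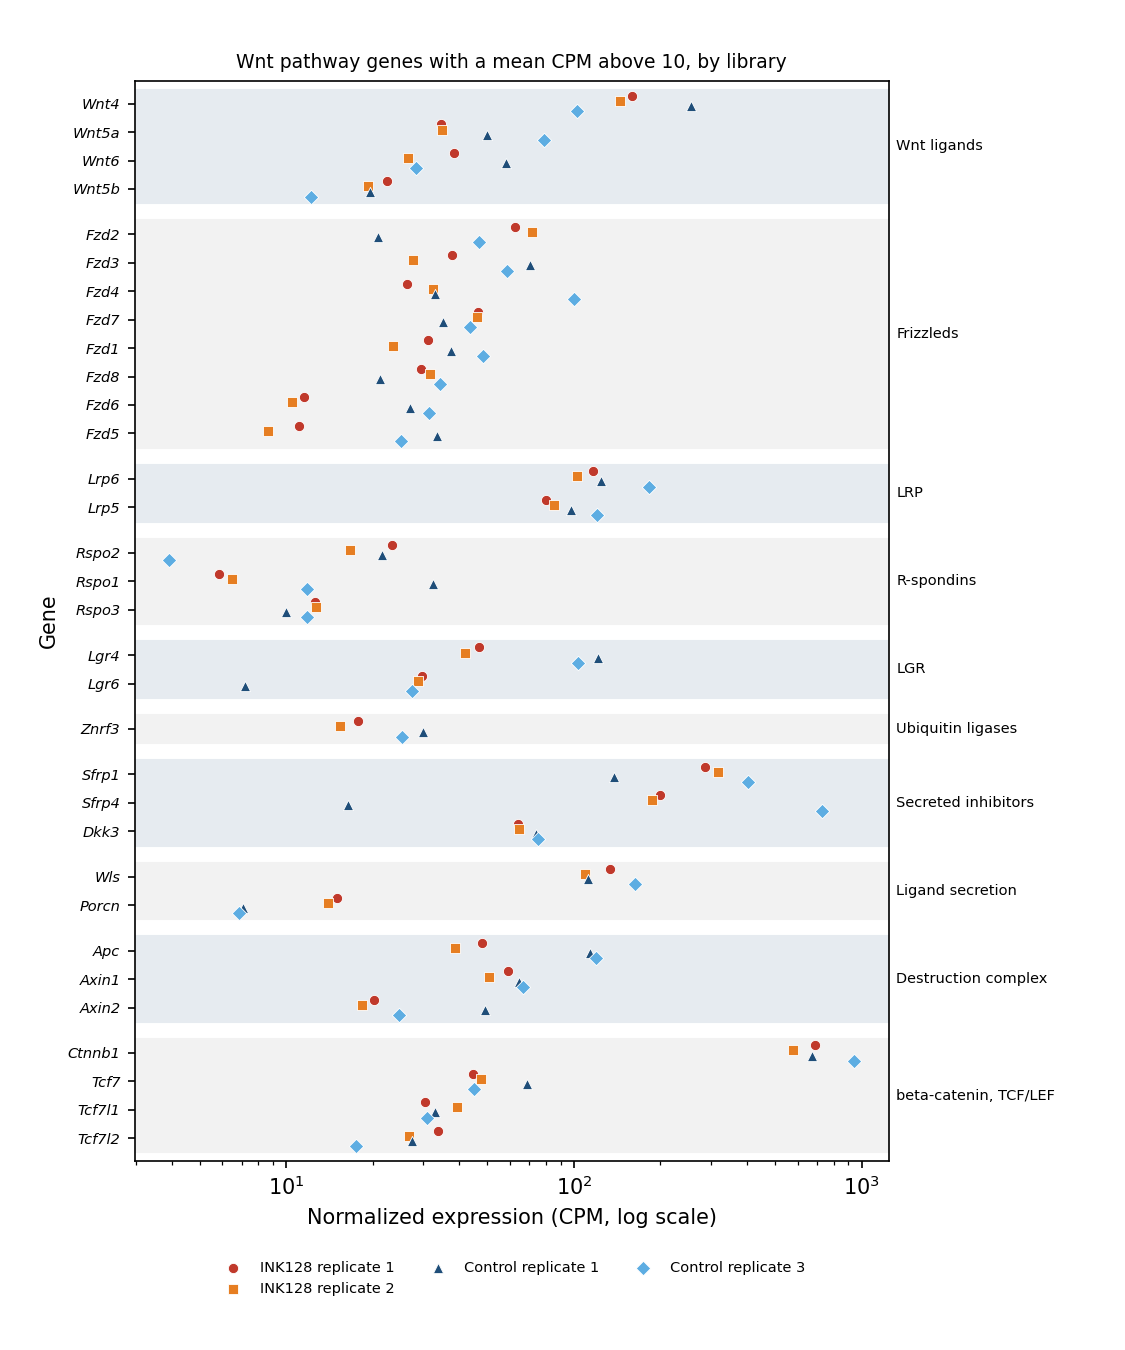
CPM (log scale) of the 32 members with a mean CPM above 10 in each of the 4 libraries, grouped by class. Apc, Lgr4, Fzd6, Fzd5 and Fzd3 show both INK128-treated libraries below both controls, whereas Sfrp4 shows the controls at 16.4 and 730 CPM on either side of the INK128-treated pair.

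Of the other ligands, 4 had a mean CPM of 1 to 10, and each was lower in both INK128-treated libraries than in both controls, beside 37.9% of the 5873 genes at that level (23.6% were higher in both). The wider fit, over 17631 genes with a mean CPM above 1, called 0% of genes in edgeR (lowest adjusted p 0.0555, with 5797 genes at an unadjusted p below 0.05), so values from it carry no call, while DESeq2 over the same genes called 13.6% lower and 10.2% higher. Wnt2b, a ligand singled out after its values were seen, was at 1.34 and 1.10 CPM against 8.06 and 10.6 CPM. The pairs were far apart and each pair was close, with a log2 fold change of -2.88 (SE 0.42) and an adjusted p of 0.0555 in edgeR and 1.7e-05 in DESeq2 (Benjamini-Hochberg). Wnt10b was at 0.268 and 0.782 CPM against 1.24 and 9.83 CPM. Wnt11 was at 0.215 and 0.230 CPM against 4.52 and 0.717 CPM. In each, 1 control library held most of the reads, which were those of replicate 3 for Wnt10b and of replicate 1 for Wnt11. Both passed the filter through that library, were called lower by DESeq2 (adjusted p of 0.0285 and 0.0394, Benjamini-Hochberg) and had edgeR adjusted p of 0.142 and 0.117. The log2 fold change of Wnt10b was -3.32, and -1.15 without control replicate 3, and that of Wnt11 was -3.47, and -1.61 without control replicate 1. Wnt9a was at 5.29 to 5.96 CPM against 8.56 to 8.77 CPM. The remaining 11 ligands had at most 66 counts in any library. Wnt7b had 5 and 5 counts in INK128-treated rOvaries and 66 and 7 in controls. Wnt10a had 1 and 0 counts against 39 and 7. Control replicate 1 was highest in both. Wnt7a had 19 and 6 counts against 4 and 0. Wnt8b had 0 in every library, and Wnt1, Wnt2, Wnt3, Wnt3a, Wnt8a, Wnt9b and Wnt16 had at most 10.

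Ligand secretion was represented by Porcn, the acyltransferase that adds the lipid to Wnt proteins, and Wls, the carrier that takes them to the cell surface. Porcn (chrX:8193848-8206525) was at 15.0 and 14.0 CPM in INK128-treated rOvaries and at 7.08 and 6.87 CPM in controls. The replicates of each group were close and the groups were apart, with a log2 fold change of 1.05 (SE 0.27). The adjusted p was 0.0732 in edgeR and 0.0198 in DESeq2 (Benjamini-Hochberg), and in leave-one-out fits the log2 fold change was 1.03 and 1.07 without either control. Wls was at 133 and 110 CPM against 112 and 163 CPM. Its groups overlapped, with a log2 fold change of -0.18 (SE 0.26, edgeR adjusted p = 0.631, Benjamini-Hochberg) that turned to 0.26 with length offsets.

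All 10 Frizzled receptors were detected, 8 of them with a mean CPM above 10, and in edgeR 1 was called lower and 0 higher, beside 3.19% and 3.18% of all tested genes. DESeq2 called 3 lower and 0 higher, beside 15.1% and 13.6%, and at an unadjusted p below 0.05 there were 3 lower and 0 higher, beside 18.7% and 17.7%. Fzd6 (chr15:39006034-39038188), a receptor known for planar polarity of epithelia, was at 11.5 and 10.5 CPM in INK128-treated rOvaries and at 26.9 and 31.5 CPM in controls. All controls lay above all INK128-treated libraries, and Fzd6 fell 2.65-fold (log2 fold change -1.41, SE 0.24, adjusted p = 0.0486, edgeR with Benjamini-Hochberg adjustment). With length offsets the log2 fold change was -1.33 (adjusted p = 0.0851). Fzd5, a receptor known from epithelia that was singled out after its values were seen, was at 11.1 and 8.65 CPM against 33.4 and 25.1 CPM. Its groups were as clearly apart, with a log2 fold change of -1.57 (SE 0.29) and an adjusted p of 0.0507 in edgeR and 0.000294 in DESeq2 (Benjamini-Hochberg). Fzd3, which acts in axon guidance and planar polarity, was at 37.7 and 27.6 CPM against 70.3 and 58.7 CPM. The groups were apart, with a log2 fold change of -0.98 (SE 0.24, edgeR adjusted p = 0.0668, Benjamini-Hochberg), and length offsets moved it to -0.38.

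Fzd2 was the receptor with the largest positive value, at 62.2 and 71.7 CPM in INK128-treated rOvaries against 20.8 and 46.9 CPM in the controls. Both INK128-treated libraries lay above both controls, which were more than 2-fold apart, and the log2 fold change was 0.98 (SE 0.42, edgeR adjusted p = 0.170, Benjamini-Hochberg). It was 0.51 without control replicate 1 and 1.69 without control replicate 3. Fzd4, the receptor of endothelial cells for norrin, was at 26.3 and 32.3 CPM against 32.8 and 100 CPM. Control replicate 1 was next to the INK128-treated pair and control replicate 3 was far above it, and the log2 fold change was -1.18 (SE 0.56, edgeR adjusted p = 0.199, Benjamini-Hochberg). Without control replicate 3 it was -0.16. The summed endothelial markers were 694 to 771 CPM in INK128-treated rOvaries and 790 to 941 CPM in controls, and their part in the values of Fzd4 was not tested. Fzd7 was at 46.4 and 46.1 CPM against 35.2 and 43.6 CPM (log2 fold change 0.23, SE 0.20, edgeR adjusted p = 0.429, Benjamini-Hochberg), with the groups apart by a small margin. Fzd1 and Fzd8 were at 21.3 to 48.3 CPM and were not called, and Fzd9 and Fzd10, at a mean CPM of 1 to 10, were highest in control replicate 1 at 6.91 and 4.38 CPM. Per kilobase of exon, Fzd2 had the highest mean level of the family at 13.8 RPKM (5.68 to 19.6), a range that overlapped those of Fzd7 at 9.45 RPKM (7.76 to 10.3), Fzd1 at 8.38 RPKM (5.62 to 11.5) and Fzd4 at 7.13 RPKM (3.91 to 14.9).

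The co-receptors Lrp5 and Lrp6 were both expressed at over 79 CPM in every library. Lrp6 was at 116 and 103 CPM in INK128-treated rOvaries against 124 and 183 CPM in the controls. Lrp5 was at 79.9 and 85.2 CPM against 97.5 and 121 CPM. Both were lower in both INK128-treated libraries, as were 34.0% of all tested genes, without passing the test, with log2 fold changes of -0.49 (SE 0.25) and -0.40 (SE 0.19) and edgeR adjusted p of 0.228 and 0.193 (Benjamini-Hochberg). They are among the longest members, at 13672 and 9738 bases of exon, and with length offsets their log2 fold changes turned to 0.17 and 0.09. Without control replicate 3 they were -0.18 and -0.24. Per kilobase of exon their mean levels, 9.62 RPKM for Lrp6 (7.53 to 13.4) and 9.84 RPKM for Lrp5 (8.21 to 12.4), overlapped.

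Among the R-spondins, 3 of 4 entered the main test and 0 were called by edgeR, beside 3.19% lower and 3.18% higher among all tested genes. DESeq2 called 1 lower and 0 higher (15.1% and 13.6% of all tested genes), and 1 was lower and 0 higher at an unadjusted p below 0.05 (18.7% and 17.7%). Rspo1 (chr4:124986430-125009099) was at 5.85 and 6.49 CPM in INK128-treated rOvaries and at 32.5 and 11.9 CPM in controls. Both controls were above both INK128-treated libraries, and control replicate 1, the library with the high Sertoli markers, was above the other control by more than 2-fold. The log2 fold change was -1.84 (SE 0.55), with an adjusted p of 0.0931 in edgeR and 0.0139 in DESeq2 (Benjamini-Hochberg), and it ranged from -0.94 without control replicate 1 to -2.40 without control replicate 3. Rspo1 is the shortest tested member, and with length offsets its value was -2.30. Rspo2, a ligand made by oocytes, was at 23.3 and 16.7 CPM against 21.5 and 3.92 CPM. The low library was control replicate 3, the library low in oocyte markers, and the log2 fold change was 0.65 (SE 0.82, edgeR adjusted p = 0.582, Benjamini-Hochberg) and turned to -0.11 without that library. Rspo3, a stromal and vascular R-spondin, was nearly level at 12.6 and 12.7 CPM against 10.01 and 11.8 CPM (log2 fold change 0.21, SE 0.27, edgeR adjusted p = 0.6005, Benjamini-Hochberg), and Rspo4 had at most 2 counts in any library.

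Of the R-spondin receptors, 1 of the 2 in the main test was called lower by edgeR and by DESeq2, beside 3.19% and 15.1% of all tested genes. Lgr4 (chr2:109917647-110014257), the broadly expressed receptor of the family, was at 46.7 and 41.9 CPM in INK128-treated rOvaries and at 121 and 103 CPM in controls. The groups were well apart, and Lgr4 fell 2.54-fold (log2 fold change -1.34, SE 0.18, adjusted p = 0.0464, edgeR with Benjamini-Hochberg adjustment). The value was -1.14 with length offsets (adjusted p = 0.0830) and -1.46 to -1.22 in leave-one-out fits. Lgr5, a marker of epithelial stem cells that is also known from the ovarian surface epithelium, was at 0.537 and 0.644 CPM against 5.003 and 9.62 CPM. Both INK128-treated libraries were near the low end of detection and both controls far above them, with a log2 fold change of -3.56 (SE 0.57) in the wider fit and an adjusted p of 0.0558 in edgeR and 4.15e-05 in DESeq2 (Benjamini-Hochberg). Like Wnt10b, Wnt11 and Fzd10, Lgr5 passed its filter only through the controls, where it is high. Lgr6, the third receptor, was at 29.7 and 28.7 CPM against 7.22 and 27.4 CPM, so that control replicate 1 alone was low. Its log2 fold change was 0.76 (SE 0.65, edgeR adjusted p = 0.430, Benjamini-Hochberg), and it was 0.09 without control replicate 1 and 2.02 without control replicate 3.

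Surface epithelium markers were also lower beside Lgr5 and Wnt2b. Msln was at 0.0537 and 0.138 CPM with INK128 against 4.07 and 7.38 CPM without it, and Upk3b at 0.859 and 3.27 CPM against 27.0 and 21.5 CPM. Muc16 was at 0 in both INK128-treated libraries and at 2.57 and 3.84 CPM in controls. Of the 5 markers of this list with a mean CPM above 10, 4 were lower in both INK128-treated libraries (34.0% of all tested genes) and 1 fell in edgeR (3.19%), and the other 6 with a mean CPM above 1 were lower in both (37.9% of genes at that level). Of the 5, Upk3b and 2 others, and of the 6, Msln, Muc16 and Upk1b, passed their filter only through the controls, where they are high, so these counts are partly set by the filter. Kidney markers were lower beside Lgr4, Fzd6, Apc, Lgr5 and Wnt2b, with the 17 markers above a mean CPM of 10 lower in both INK128-treated libraries (34.0% of all tested genes), among them Cdh16 at 2.90 and 7.96 CPM against 93.7 and 106 CPM. Of these 17, Cdh16 and 10 others passed the filter only through the controls, so that count too is partly set by the filter. The part of either cell type in these values was not tested.

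**Figure D4:**
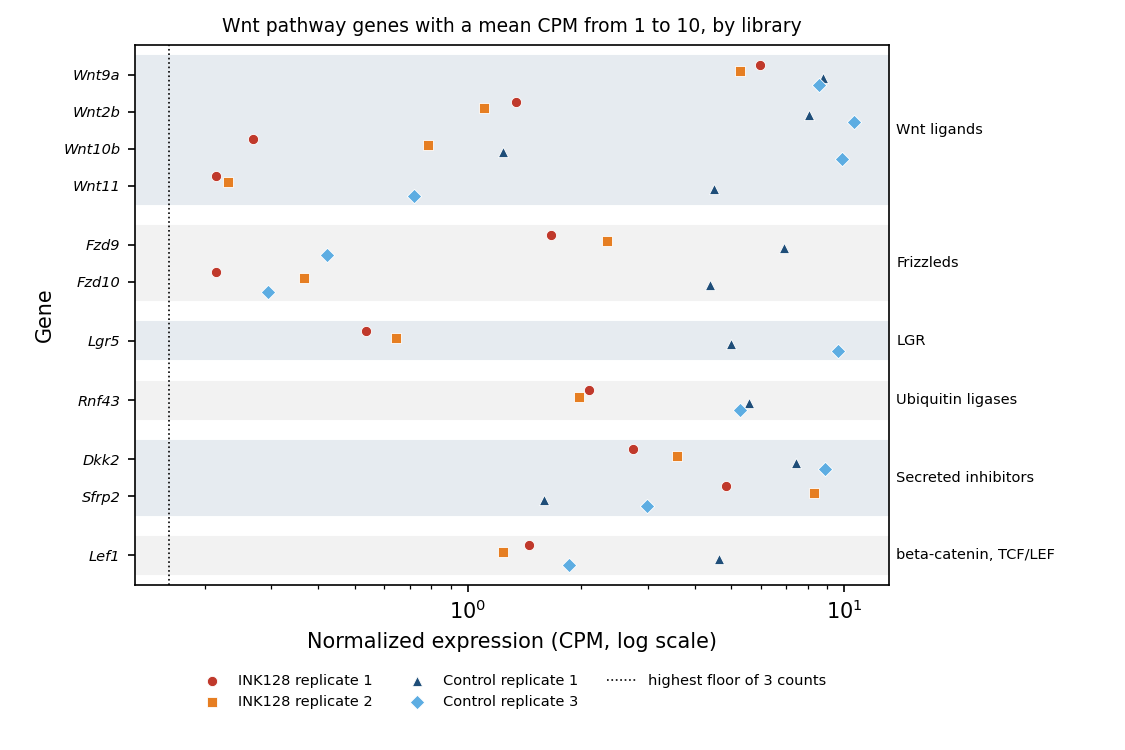
CPM (log scale) of the 11 members with a mean CPM of 1 to 10 in each library, with the highest floor of 3 counts (0.161 CPM) as a dotted line. Wnt2b, Lgr5, Rnf43 and Dkk2 show both controls above both INK128-treated libraries, with the Lgr5 controls further apart than those of the other three, while in Wnt10b, Wnt11, Fzd9 and Fzd10 a single control library lies far to the right.

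The ubiquitin ligases that remove Frizzled receptors were both lower in both INK128-treated libraries, and neither was called. Of all genes, 34.0% of those with a mean CPM above 10, as for Znrf3, and 37.9% of those at 1 to 10, as for Rnf43, were lower in both. Znrf3 was at 17.7 and 15.4 CPM in INK128-treated rOvaries and at 30.0 and 25.3 CPM in controls (log2 fold change -0.74, SE 0.24, edgeR adjusted p = 0.103, Benjamini-Hochberg). Znrf3 is long, at 7893 bases of exon, and with length offsets its value was -0.37 (adjusted p = 0.380, edgeR). Rnf43 was at 2.09 and 1.98 CPM against 5.58 and 5.27 CPM (log2 fold change -1.36, SE 0.42, edgeR adjusted p = 0.106 in the wider fit, Benjamini-Hochberg). In both genes the spread within each pair was small beside the gap between the groups.

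Of the 8 secreted inhibitors, 3 entered the main test, and 0 were called by edgeR (3.19% lower and 3.18% higher among all tested genes) or DESeq2 (15.1% and 13.6%), or were below 0.05 in unadjusted p (18.7% and 17.7%). Sfrp4, a decoy receptor of ovarian and stromal tissue, was at 200 and 186 CPM in INK128-treated rOvaries and at 16.4 and 730 CPM in controls. The controls lay on opposite sides of the INK128-treated pair, and the log2 fold change of -0.95 (SE 1.51, edgeR adjusted p = 0.666, Benjamini-Hochberg) was -1.92 without control replicate 1 and 3.56 without control replicate 3. Sfrp1, a related decoy receptor, was at 286 and 318 CPM against 138 and 402 CPM, again between the controls (log2 fold change 0.16, SE 0.53, edgeR adjusted p = 0.838, Benjamini-Hochberg). Dkk3, a DKK family member that does not bind LRP5 or LRP6 in the way of its relatives, was at 63.8 and 64.7 CPM against 74.1 and 74.9 CPM. The groups were apart but by a small amount, with a log2 fold change of -0.21 (SE 0.16, edgeR adjusted p = 0.366, Benjamini-Hochberg). Dkk2, which binds LRP6, was at 2.74 and 3.59 CPM against 7.44 and 8.86 CPM (log2 fold change -1.31, SE 0.38, edgeR adjusted p = 0.0976 in the wider fit, Benjamini-Hochberg). Sfrp2 went the other way, at 4.83 to 8.28 CPM in INK128-treated rOvaries and 1.59 to 2.99 CPM in controls, and Dkk1, Dkk4 and Sfrp5 had at most 16 counts in any library. Per kilobase of exon, Sfrp4 at 67.7 RPKM (3.92 to 175) and Sfrp1 at 65.4 RPKM (31.5 to 91.9) had the highest mean levels among the secreted members, with overlapping ranges.

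In the destruction complex, the scaffold Apc was called lower, 1 of 3 members tested, beside 3.19% of all tested genes. Apc (chr18:34220924-34322552) was at 47.9 and 38.6 CPM in INK128-treated rOvaries and at 114 and 119 CPM in controls. The controls were close to each other and well above the INK128-treated pair, and Apc fell 2.70-fold (log2 fold change -1.43, SE 0.19, adjusted p = 0.0464, edgeR with Benjamini-Hochberg adjustment). Apc has the longest exon sequence of the tested members, 16116 bases, and with length offsets its log2 fold change was -0.71 (adjusted p = 0.109). Axin1, the constitutive scaffold, was at 59.0 and 50.5 CPM against 64.6 and 66.8 CPM, with both INK128-treated libraries slightly below both controls (log2 fold change -0.26, SE 0.18, edgeR adjusted p = 0.329, Benjamini-Hochberg). Axin2, the scaffold induced by β-catenin, was at 20.1 and 18.3 CPM against 49.1 and 24.7 CPM. The controls were both higher, replicate 1 by far the most, and the log2 fold change was -0.94 (SE 0.38, edgeR adjusted p = 0.154, Benjamini-Hochberg). It was -0.36 without control replicate 1 and -1.36 without control replicate 3.

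Ctnnb1, the gene of β-catenin, had the highest level per kilobase of exon of all members, 139 RPKM (111 to 182). It was at 688 and 578 CPM in INK128-treated rOvaries and at 675 and 945 CPM in controls. The groups overlapped, with a log2 fold change of -0.36 (SE 0.25, edgeR adjusted p = 0.344, Benjamini-Hochberg) that was -0.09 without control replicate 3. None of the 3 TCF/LEF genes in the main test was called by edgeR (3.19% lower and 3.18% higher among all tested genes) or DESeq2 (15.1% and 13.6%), and 0 had an unadjusted p below 0.05 (18.7% and 17.7%). Tcf7, at 44.7 and 47.4 CPM against 68.7 and 45.1 CPM, was highest in control replicate 1, with the other libraries close together (log2 fold change -0.30, SE 0.26, edgeR adjusted p = 0.429, Benjamini-Hochberg). Tcf7l1, a factor that mostly represses, was at 30.3 and 39.4 CPM against 32.9 and 30.8 CPM. Tcf7l2, the TCF factor of gut and pancreas, was at 33.7 and 26.7 CPM against 27.4 and 17.4 CPM. Both overlapped between the groups, with log2 fold changes of 0.13 (SE 0.22) and 0.43 (SE 0.31) and edgeR adjusted p of 0.692 and 0.357 (Benjamini-Hochberg). The value of Tcf7l2 was 0.14 to 0.79 in leave-one-out fits and 0.85 with length offsets. Lef1, itself a target of the pathway, was at 1.24 to 1.45 CPM against 1.86 to 4.65 CPM, with the higher value in control replicate 1.

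The controls differed by more than 2-fold in 9 of the 32 tested members and the INK128-treated pair in 0, beside 13.8% and 1% of all tested genes. These 9 were Wnt4, Wnt6, Rspo1, Rspo2, Fzd2, Fzd4, Lgr6, Sfrp1 and Sfrp4. Control replicate 1 was the higher of the controls in Wnt4, Wnt6, Rspo1 and Rspo2 and the lower in Fzd2, Fzd4, Lgr6, Sfrp1 and Sfrp4. The 3 called members were not among them.

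Among 82 other genes of the pathway, taken from lists of further receptors, inhibitors, cytoplasmic transducers, nuclear cofactors and planar polarity genes, 69 entered the main test. In edgeR 2 fell and 0 rose, beside 3.19% and 3.18% of all tested genes. At an unadjusted p below 0.05, 21 were lower and 8 higher, beside 18.7% and 17.7%, and DESeq2 called 14 lower and 6 higher, beside 15.1% and 13.6%. Tnks, a tankyrase that promotes the turnover of AXIN, was at 61.2 and 55.1 CPM in INK128-treated rOvaries and at 162 and 153 CPM in controls (log2 fold change -1.44, SE 0.17, adjusted p = 0.0464, edgeR with Benjamini-Hochberg adjustment). Ep300, an acetyltransferase that acts as a β-catenin cofactor, was at 51.7 and 43.7 CPM against 101 and 120 CPM (log2 fold change -1.21, SE 0.20, edgeR adjusted p = 0.0475, Benjamini-Hochberg). Both genes were low in both INK128-treated libraries, and both are long, at 14888 and 14273 bases of exon, with length-offset values of -0.76 and -0.54. Over the 69 genes the median log2 fold change was -0.27, and 0.00 with length offsets.

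Of 26 β-catenin target genes outside the set, 16 entered the main test, and in edgeR 2 fell and 0 rose, beside 3.19% and 3.18% of all tested genes. At an unadjusted p below 0.05, 3 were lower and 1 higher, beside 18.7% and 17.7%, and DESeq2 called 2 lower and 1 higher, beside 15.1% and 13.6%. Ccnd1, the gene of cyclin D1, was at 37.2 and 45.6 CPM in INK128-treated rOvaries and at 103 and 112 CPM in controls (log2 fold change -1.38, SE 0.19, adjusted p = 0.0464, edgeR with Benjamini-Hochberg adjustment). Nrcam, a cell adhesion molecule, was at 0.805 and 1.56 CPM against 30.9 and 25.2 CPM (log2 fold change -4.55, SE 0.46, edgeR adjusted p = 0.0464, Benjamini-Hochberg). In each gene both INK128-treated libraries lay far below both controls. Nrcam passed the filter only through the controls, where it is high, so its difference is partly set by the filter. The median over the 16 was -0.19, with 7 positive and 9 negative. Of the 6 targets at a mean CPM of 1 to 10, 4 were lower and 1 was higher in both INK128-treated libraries, beside 37.9% and 23.6% of genes at that level. DESeq2 over the wider set called 3 of the 6 lower and 0 higher, beside 13.6% and 10.2% of all genes in that fit. Of the 6, 5 passed that filter only through the controls, so these counts are partly set by the filter.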

How the data were processed

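Per the paper's methods and the labels, poly(A) RNA libraries (NEBNext Ultra kit) were trimmed with Trimmomatic, aligned to mm10 with HISAT2 and counted per gene with featureCounts on an annotation named RefGene. Tool versions and the strand setting were not given in the sources used here. The table the authors deposited holds unnormalized read counts of each symbol in 4 libraries that were not pooled. From these, edgeR 4.0.16 (R 4.3.3) gave TMM-adjusted CPM and a quasi-likelihood test, adjusted by Benjamini-Hochberg, over 11758 genes with a mean CPM above 10, and over 17631 genes with a mean CPM above 1 for members below that filter. Calls needed a fold change above 1.5 at an adjusted p below 0.05. Standard errors are the absolute log2 fold change divided by the square root of F. Replicate correlations used log2(CPM + 0.5). Exon lengths and positions came from GENCODE M21, matched for 53447 symbols, and RPKM is CPM per kilobase of exon. Length offsets came from a loess (span 0.5) of each library on exon length.

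Alternatives used DESeq2 1.42.0, limma 3.58.1 voom, other scalings, filters and thresholds, and each library left out, and the code was tested on simulated data. Values are given for called members and up to 4 further members of each class with the highest mean CPM. The others are given by range and count, or named as singled out: beyond that rule, Wnt2b, Wnt10b, Wnt11, Wnt9a, Fzd5, Fzd9, Fzd10, Lef1, Sfrp2 and the members with counts only were named after their values were seen. The members and all gene lists were chosen with earlier results of these data known. Genes on the other strand overlap exons of 11 members, among them Fzd5, Fzd6, Axin2, Wnt5a and Ctnnb1, and the kit does not mark strand, so reads in those stretches cannot be assigned to 1 gene.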

Additional observations from a re-analysis of the deposited data

How the results depend on the processing

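With 2 libraries a group, both calls and fitted values moved with the processing. Of the 43 fitted members, 30 kept their direction in every alternative run. Members called lower (3 in the main test) numbered 7 with DESeq2 (15.1% of all genes in that fit) and 7 at an adjusted p below 0.1 (13.5%), 10 of 57 fitted with no filter (6.20%) and 10 of 43 with DESeq2 over a mean CPM above 1 (13.6%, an alternative chosen after seeing the data), where in either case 6 of the 10 were among the 32 of the main test, and 0 with voom, over a mean CPM above 1 and with length offsets. Members called higher (0) numbered 1 with DESeq2 at either filter (13.6% and 10.2% of all genes) and 1 at an adjusted p below 0.1 (13.1%). Other Wnt pathway genes called (2) numbered 20 with DESeq2 at either filter (28.6% and 23.8% of all genes in either direction), 21 at an adjusted p below 0.1 (26.6%), 11 with no filter (9.86%), 9 with CPM above 10 in all libraries (15.1%), 4 with library totals alone (7.40%), and 0 with voom, over a mean CPM above 1 and with length offsets. In those last 3 fits 0 of all genes were called. The members' median log2 fold change was -0.45 with library totals alone. The cause of these changes was not tested.

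With each library left out in turn, 0 to 11 members were called lower, 0 to 5 higher, and 0 to 32 other pathway genes. Without either INK128-treated library 0 of all genes were called, without control replicate 1 23.2% were called lower and 22.7% higher, and without control replicate 3 21.4% and 21.2%, so the counts move with calls over all genes. The calls of Apc, Lgr4 and Fzd6 were lost without either INK128-treated library (0 called) and held without either control, where the lone control was assumed to vary like the INK128-treated pair. Their log2 fold changes were -1.61 to -1.29, -1.46 to -1.22 and -1.51 to -1.29. Direction turned in 11 members, with leave-one-out ranges of -1.92 to 3.56 for Sfrp4, -1.72 to 2.29 for Fzd9, -3.81 to 0.051 for Fzd10, -0.11 to 2.35 for Rspo2, -0.74 to 0.57 for Wnt4, -0.85 to 0.20 for Wnt6, -0.17 to 0.52 for Fzd8, -0.41 to 1.13 for Sfrp1, -0.58 to 0.032 for Tcf7, -0.08 to 0.29 for Tcf7l1 and -0.43 to 0.12 for Wls. Length offsets turned Lrp5 (0.087), Lrp6 (0.17) and Wls (0.26), and voom turned Sfrp4 (0.82) and Fzd9 (0.30). No paired analysis was possible because neither the labels nor the paper gave a pairing of the libraries. The 15 members with a mean CPM of 1 or less are given as counts because of the chosen filter.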
